A study of Mus musculus with 15 samples.

Results

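The striated muscle contractile genes were followed in RNA sequencing libraries of mouse posterior eyecups. They comprised 43 genes chosen by name, of 55421 genes in the count table, and each Ensembl identifier was matched to its mouse symbol. At 2.5 months of age, 4 WT, 6 FUN025/+ and 5 FUN025/FUN025 animals gave 1 library each, all of the C57BL/6J background and of both sexes. Per the study, males and females numbered 2 and 2 in WT, 4 and 2 in FUN025/+, and 2 and 3 in FUN025/FUN025. Sex was not given per library, so the fit held no term for it. FUN025 is a germline mutation of Tmem135, which encodes a membrane protein found at mitochondria and peroxisomes, and the WT mice carried no FUN025 allele. Each library held the pooled eyecups of one mouse after the neural retina was taken off, so it represents pigment epithelium, choroid and sclera with whatever stayed attached to them. By role the 43 genes divided into 14 fast-fibre genes, 7 slow-fibre genes, 3 extraocular and developmental genes, 12 parts of the sarcomere shared by fibre types, 5 energy enzymes and myoglobin, and 2 calcium channels.

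The sarcomere is the contractile unit of striated muscle, in which myosin filaments pull on actin filaments when calcium binds the troponin complex. Most of its proteins are made from separate genes in fast and slow fibres, so that the balance of paired genes reads out the fibre type. The extraocular muscles that move the eye insert on the sclera, are mostly fast, and keep myosins found elsewhere only in developing muscle, with Myh13 as a form largely limited to them.

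Depth differed by genotype. The WT libraries held 18094977 to 20029919 counts, the FUN025/+ libraries 10903183 to 13456349 and the FUN025/FUN025 libraries 11053535 to 15038383, so that every WT library was deeper than every mutant one and depth cannot be told apart from genotype. A floor of 3 counts corresponded to 0.150 to 0.282 CPM, the count scaled to library size that is used as the level below, and it covers counting error only. The summed level of 8 pigment epithelium markers was 16243.0 to 21813.0 CPM over the 15 libraries, so the labelled tissue was present in each. Genotypes rest on the labels, since counts per gene do not read the FUN025 allele. No batch was labelled.

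Promoter sequence is given because most of these genes were high or low in the same libraries. RefSeq promoters on GRCm38.p6 were matched for 35 of the 43 genes. Within 250 bases upstream of the start and on either strand, the E-box CANNTG, the core bound by myogenic factors such as MyoD, was present in 29 of the 35 (82.9%) against 66.2% of all 32851 promoters. The MCAT element CATTCC, bound by TEAD factors, occurred in 11 (31.4%) against 12.6%. The CArG box, bound by serum response factor, occurred in 6 (17.1%) against 1.47%, and a MEF2 site in 5 (14.3%) against 1.69%. A TATAAA box occurred in 7 of the 35 against 12.4%. These are letter matches, not sites shown to be used, and CArG and MEF2 matches can overlap each other. The last 150 bases before the start are shown for skeletal actin Acta1, the fast myosin Myh4 and slow troponin Tnnc1, as one shared, one fast and one slow gene of the results below, with CArG, E-box, MCAT and TATAAA matches in capitals. Acta1 lies at chr8:123894776-123894925 on the minus strand, Myh4 at chr11:67237662-67237811 on the plus strand and Tnnc1 at chr14:31208162-31208311 on the plus strand.
Acta1: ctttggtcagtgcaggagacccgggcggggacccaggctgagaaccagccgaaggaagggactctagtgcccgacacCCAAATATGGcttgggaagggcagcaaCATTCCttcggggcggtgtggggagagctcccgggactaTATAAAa
Myh4: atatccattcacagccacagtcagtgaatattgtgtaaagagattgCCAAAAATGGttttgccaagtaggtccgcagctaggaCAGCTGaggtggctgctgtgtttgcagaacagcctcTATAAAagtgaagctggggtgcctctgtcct
Tnnc1: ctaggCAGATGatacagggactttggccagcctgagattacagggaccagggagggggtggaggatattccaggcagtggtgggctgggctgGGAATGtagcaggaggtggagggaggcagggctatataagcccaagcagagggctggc
The Acta1 and Myh4 stretches each hold a CArG box and a TATAAA box. The Tnnc1 stretch holds neither of these and has an E-box and an MCAT element read on the other strand.

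The amount of muscle RNA differed several-fold between eyecups. Summed over the 43 genes, WT replicates 1 to 4 held 13888, 9311.5, 10730 and 16408 CPM, the FUN025/+ libraries held 5116.3, 6368.7, 6763.0, 6964.9, 12523 and 11065 CPM in replicate order, and FUN025/FUN025 replicates 1 to 5 held 7473.9, 8303.5, 9258.1, 8528.9 and 8939.7 CPM. These sums were 0.520% to 1.62% of the counts, with a 3.21-fold range from FUN025/+ replicate 1 to WT replicate 4. All 5 FUN025/FUN025 libraries lay below the lowest WT library, the closest by a narrow margin, and 2 of 6 FUN025/+ libraries, replicates 5 and 6, lay above it. The spread within a genotype was 1.76-fold in WT, 2.45-fold in FUN025/+ and 1.24-fold in FUN025/FUN025. Group means in FUN025/+ and FUN025/FUN025 were 64.6% and 67.6% of the WT mean. In bulk libraries such as these, less muscle left attached to the eyecup, fewer cells in that muscle and less muscle RNA per cell cannot be told apart. No test was made on the sum, which is a description of the libraries.

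**Figure D1:**
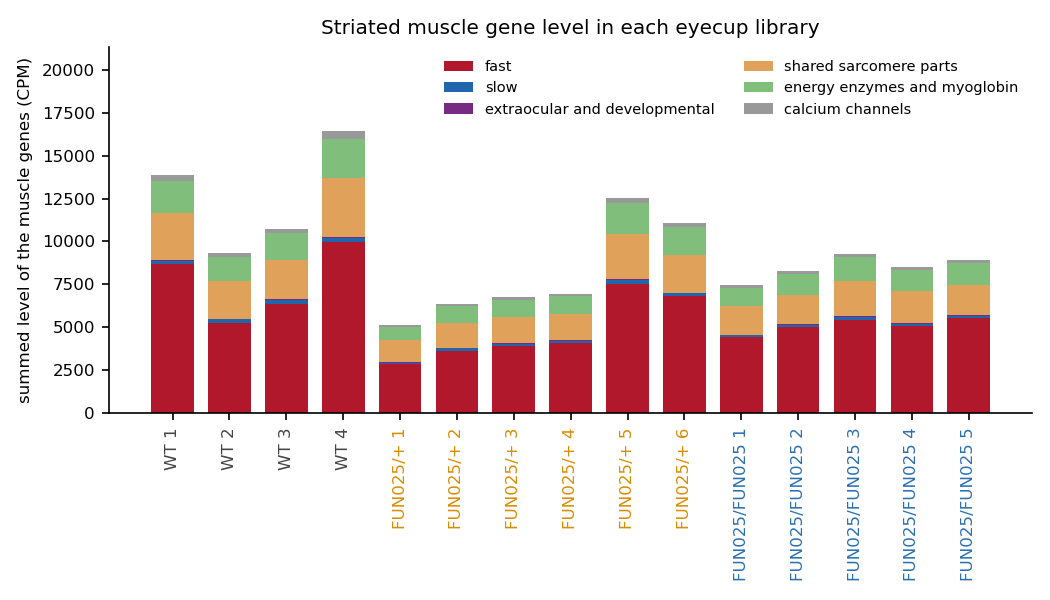
Summed level of the 43 striated muscle genes in CPM (vertical axis) in each of the 15 eyecup libraries, stacked by role. Fast-fibre genes make up most of every bar, WT replicate 4 is highest at 16408 CPM and FUN025/+ replicate 1 is lowest at 5116.3 CPM.

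The order of the libraries was much the same in muscle genes outside the set. Summed over 66 other striated muscle genes, such as sarcomere chaperones, triad proteins and muscle forms of metabolic enzymes, WT libraries held 2573.5 to 3508.1 CPM, FUN025/+ 1737.0 to 2851.4 CPM and FUN025/FUN025 1998.1 to 2397.1 CPM. WT replicate 4 ranked highest and FUN025/+ replicate 1 lowest in both sums. Markers of other tissues were read beside them. WT replicate 4 also had the highest sum of 8 adipocyte markers, 55.9 CPM against 10.2 to 29.95 CPM elsewhere. The same library was highest for 6 blood markers, 297.6 CPM against 22.5 to 197.7 CPM elsewhere. Its sum of 8 choroid endothelium markers was highest too, 1354.3 CPM against 832.9 to 1255.2 CPM elsewhere. WT replicate 2 had the highest sum of 15 photoreceptor markers, 2691.2 CPM against 196 to 889 CPM elsewhere. In the comparisons with WT, fold changes of all 14 photoreceptor markers tested were below 0 in both mutant genotypes, with medians of −1.76 and −1.80, and 0 and 1 passed (edgeR). All 8 choroid endothelium markers were below 0 too, with medians of −0.17 and −0.36, and 3 and 6 passed. All 6 adipocyte markers tested (medians −1.03 and −0.42, 1 and 0 passed) and all 5 blood markers tested (−1.16 and −0.41, 0 passed) were below 0, and all 6 lens markers tested were above 0 (1.86 and 3.35, 0 passed). With the mean log2 CPM of the photoreceptor markers as a covariate, 20 of the 41 muscle genes tested passed in each mutant genotype, with medians of −0.88 and −0.79, where 12.0% and 13.4% of all genes tested did in either direction. The part of the other tissues in the result was not tested. Of 7 genes listed for heart muscle, which summed to 9.89 to 19.0 CPM, the transcription factor Nkx2-5 had 0 counts in all 15 libraries, Nppb and Mybpc3 had at most 2 and 3 counts in any library and Myl7 at most 6. The 2 tested, Ryr2 and Pln, which other tissues make too, passed in neither comparison with WT.

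Against WT, nearly all fitted fold changes of muscle genes were below 0 in both mutant genotypes, and a minority of single genes passed the test. Of the 43 genes, 41 had enough counts to be tested, and Myh13 and Myl3 did not. In FUN025/+ eyecups, 41 of 41 had a log2 fold change below 0 (50.5% of all 18979 genes tested did), with a median of −0.63 against −0.0023 over all genes, and 10 passed as lower (edgeR quasi-likelihood test, adjusted p under 0.05), where 6.61% of all genes tested did so. In FUN025/FUN025 eyecups, 40 of 41 were below 0 (51.4% of all genes tested), with a median of −0.54, and 7 passed as lower, where 7.02% of all genes tested did. The shares of members called were 24.4% and 17.1%, beside 13.7% and 14.0% of all genes called in either direction. None of the 41 passed as higher in either genotype. An unadjusted p under 0.05 was reached by 25 and 22 members, against 28.8% and 28.6% of all genes tested.

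Both comparisons use the same 4 WT libraries, so they are not independent of each other. Myh1, Acta1, Actn2, Des, Ldb3 and Mb passed in both. Tnni2, Tnnt1, Tnnc1 and Myom1 passed in FUN025/+ only by the threshold, and Myh2 in FUN025/FUN025 only by the threshold; the direct comparison of the mutants, given below, called none of them. The CPM values of FUN025/FUN025 lay wholly below those of WT for 17 of 41 genes, against 7.5% of all genes tested, and those of FUN025/+ for 1 of 41, Actn2, against 5.18%. The 2 high FUN025/+ libraries, replicates 5 and 6, overlapped WT for most genes. Counts of calls moved with single libraries. Without WT replicate 4, 3 and 1 members passed (7.32% and 2.44% of 41), and the share of all genes tested that passed, in either direction, was lower too, at 7.48% and 7.93% against 13.7% and 14% with every library. Without FUN025/+ replicate 5, 23 and 15 members passed, beside 11.7% and 13.8% of all genes. Of 58 fold changes against WT recomputed gene by gene, 41 missed the threshold, and 23 of these passed under at least 1 other setting or with 1 mouse left out, leaving aside the muscle covariate given below. Those that passed under 4 or more other settings were Tnnt3 and Ryr1 in both genotypes, Myh2 in FUN025/+, and Tnni2, Tnnt1 and Myom1 in FUN025/FUN025. Of the 66 other striated muscle genes, 20 (30.3%) passed as lower in FUN025/+ and 22 (33.3%) in FUN025/FUN025, none as higher. The shares of all genes tested that passed as lower were 6.61% and 7.02%.

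**Figure D2:**
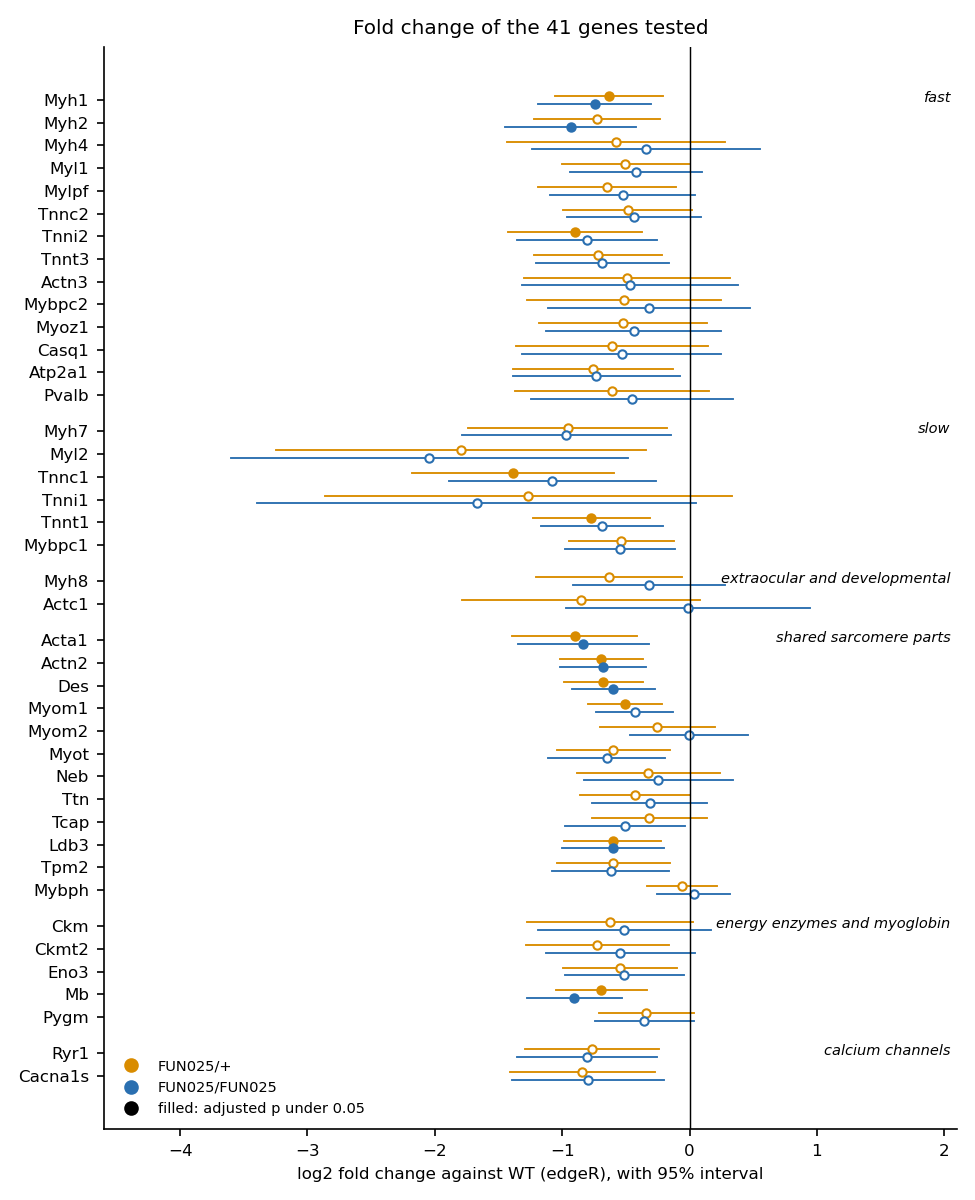
Log2 fold change against WT (horizontal axis, edgeR, bars are 95% intervals) of the 41 genes tested, grouped by role, for FUN025/+ (orange) and FUN025/FUN025 (blue), with filled points for an adjusted p under 0.05. All points but 1 lie below 0, and 10 and 7 are filled.

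The fast-fibre genes made up most of the summed level in every library. The fold changes of all 14 were below 0 in both genotypes, with medians of −0.61 in FUN025/+ and −0.50 in FUN025/FUN025, and 2 (14.3%) passed in each. Among all genes tested, 6.61% and 7.02% passed as lower, and 13.7% and 14.0% in either direction. Among the 3 adult fast myosin heavy chains, the motor proteins of the thick filament, Myh4 (type 2B) was the most abundant per length, with WT means of 258 CPM per kilobase of exon against 99.4 for Myh1 (type 2X) and 39.0 for Myh2 (type 2A). Myh1 stood at 496, 726, 562 and 742 CPM in WT replicates 1 to 4, at 299, 397 and 546 CPM as the lowest, median and highest FUN025/+ library, and at 417, 288, 477, 441 and 259 CPM in FUN025/FUN025 replicates 1 to 5. All FUN025/FUN025 libraries were below all WT libraries, and 1 FUN025/+ library, replicate 5, overlapped WT. Myh1 passed as lower with a log2 fold change of −0.64 ± 0.20 (SE) in FUN025/+ (edgeR, adjusted p = 0.0485) and of −0.75 ± 0.21 in FUN025/FUN025 (adjusted p = 0.0296). Leaving aside the muscle covariate given below, the FUN025/+ call was lost without any one of 10 of the 15 mice and under 4 of 11 other settings, the replicate block among them (adjusted p up to 0.203), and the FUN025/FUN025 call without any one of 4 mice and under 4 of those settings (up to 0.118).

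Myh2 followed the same order, with 219.9, 324, 249 and 320.4 CPM in WT, 110.0, 161 and 229 CPM as lowest, median and highest in FUN025/+, and 149, 103, 195, 178 and 102 CPM in FUN025/FUN025. Its groups did not overlap between WT and FUN025/FUN025, and the log2 fold change was −0.93 ± 0.24 there (edgeR, adjusted p = 0.0219; lost without WT replicate 2 or 4, at 0.0615 and 0.0719, and with the replicate block, at 0.0968) and −0.73 ± 0.23 in FUN025/+, which missed the threshold (adjusted p = 0.0517). Myh4 behaved otherwise. It was at 2180.4, 689, 1298 and 2030.4 CPM in WT, 463, 860.3 and 1761 CPM in FUN025/+ and 976, 1348, 1249.5, 1057 and 1478 CPM in FUN025/FUN025, so that WT replicate 2 lay below every FUN025/FUN025 library. The Myh4 difference from WT was within the spread between mice, with 95% intervals of −1.43 to 0.28 and −1.24 to 0.55 on the log2 scale for FUN025/+ and FUN025/FUN025. Reads of these neighbouring chromosome 11 genes can be hard to assign, since 42.9%, 34.5% and 30.4% of the 31-base words in the exons of Myh1, Myh2 and Myh4 occur in another gene too.

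Fast troponin makes the thin filament calcium-responsive. Tnni2, its inhibitory subunit, was at 333, 249, 255 and 428 CPM in WT, at 101, 147 and 252 CPM as lowest, median and highest in FUN025/+, and at 159, 168, 199, 191 and 187 CPM in FUN025/FUN025. Every FUN025/FUN025 value and 5 of 6 FUN025/+ values were under the WT range. Tnni2 had the lowest fold change of the fast genes in FUN025/+, −0.90 ± 0.24 (edgeR, adjusted p = 0.0283; lost without any one of 5 of the 15 mice and with only the 2 genotypes fitted, at up to 0.113), and its −0.81 ± 0.25 in FUN025/FUN025 missed the threshold (adjusted p = 0.0516). Tnnt3, the tropomyosin-binding subunit, averaged 624 ± 155 CPM (SD) in WT (n = 4), 379 ± 133 in FUN025/+ (n = 6) and 388 ± 39.7 in FUN025/FUN025 (n = 5), with adjusted p = 0.0573 and 0.0794 by edgeR. Tnnc2, the calcium-binding subunit, averaged 399.5 ± 118, 286 ± 90.5 and 296 ± 41.0 CPM and passed in neither. Its value is uncertain, as 59.0% of its exon words also lie in the overlapping gene Ube2c.

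The other named fast genes were likewise below WT on average without passing. The calcium pump Atp2a1, which returns calcium to the sarcoplasmic reticulum, had the highest level per length of the 43 genes, 588 CPM per kilobase in WT, and read 2407, 1343, 1633 and 2799.8 CPM in WT, 697, 992 and 1951 CPM as lowest, median and highest in FUN025/+, and 1097, 1222, 1277, 1178 and 1389.7 CPM in FUN025/FUN025. WT replicates 2 and 3 fell inside the FUN025/+ range. The Atp2a1 fold changes were −0.76 ± 0.29 and −0.73 ± 0.30 (edgeR, adjusted p = 0.103 and 0.132), and 20.3% of its exon words are shared, mostly with Rabep2. Parvalbumin, Pvalb, a calcium buffer of fast fibres, averaged 406 ± 138 CPM in WT, 267 ± 133 in FUN025/+ and 297 ± 46.6 in FUN025/FUN025. Mylpf, the fast regulatory light chain, averaged 348 ± 83.9, 222 ± 86.0 and 242 ± 21.1 CPM, and Myl1, the fast essential light chain, 329 ± 55.0, 232 ± 84.7 and 246 ± 33.1 CPM. WT replicate 4 was the highest library for 12 of the 14 fast genes and FUN025/+ replicate 1 the lowest for 12.

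**Figure D3:**
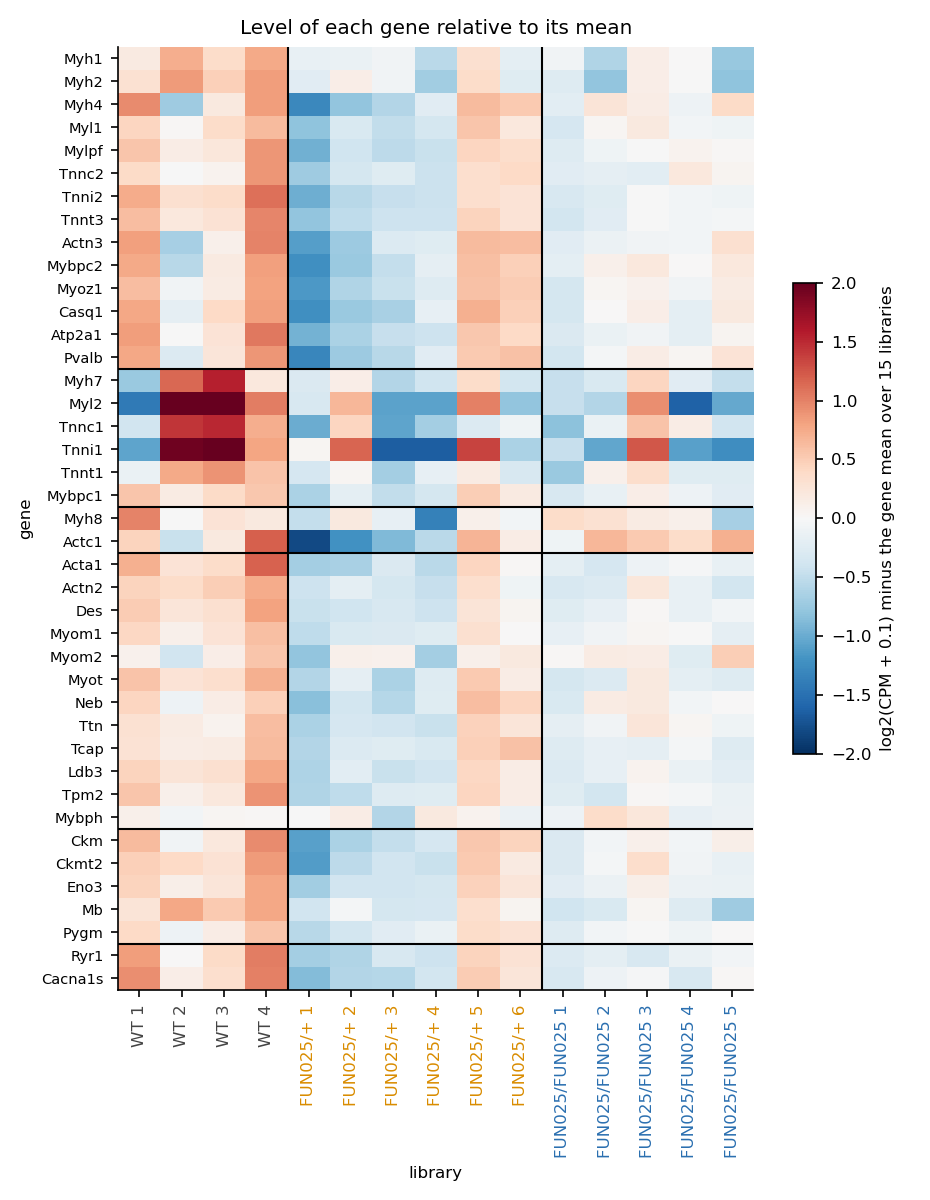
Level of each of the 41 tested genes (rows, grouped by role) in each library (columns), as log2(CPM + 0.1) minus the mean of the gene over the 15 libraries, with colours ending at −2.0 and 2.0. WT replicates 1, 3 and 4 and FUN025/+ replicates 5 and 6 are warm across most rows, while the slow genes Myh7, Myl2, Tnnc1 and Tnni1 are warmest in WT replicates 2 and 3.

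Slow-fibre genes other than Mybpc1 were scarce, and the 5 of them tested were highest in WT replicates 2 and 3. One of the 7, Mybpc1, a thick filament binding protein also made in fast fibres, was at 185 ± 21.9 CPM in WT, far above the other 6. All 6 slow genes tested were below 0 in both mutant genotypes, with medians of −1.11 in FUN025/+ and −1.02 in FUN025/FUN025. As lower, 2 and 0 passed (33.3% and 0%), beside 6.61% and 7.02% of all genes tested. Tnnc1, slow troponin C, was at 1.72, 6.30, 6.69 and 3.84 CPM in WT, 1.05, 1.64 and 3.11 CPM as lowest, median and highest in FUN025/+, and 1.25, 2.08, 3.45, 2.55 and 1.72 CPM in FUN025/FUN025. WT replicates 2 and 3 were the highest, and WT replicate 1 fell within the range of both mutant genotypes. The log2 fold change of Tnnc1 was −1.39 ± 0.37 in FUN025/+ (edgeR, adjusted p = 0.0223; lost without WT replicate 2 or 3, with no low-count filter and with the photoreceptor covariate, at 0.0598 to 0.0924), while its −1.08 ± 0.38 in FUN025/FUN025 did not pass (adjusted p = 0.0734).

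Tnnt1, slow troponin T, read 7.34, 13.7, 15.1 and 12.0 CPM in WT, 5.01, 6.82 and 9.13 CPM in FUN025/+ by the same order statistics, and 4.79, 8.70, 10.4, 6.82 and 6.81 CPM in FUN025/FUN025. Again WT replicate 1 overlapped the mutants, and the log2 fold change was −0.77 ± 0.22 in FUN025/+ (edgeR, adjusted p = 0.0272; lost without any one of 5 of the 15 mice and under 2 of 11 other settings, at up to 0.112) and −0.69 ± 0.23 in FUN025/FUN025 (adjusted p = 0.0525). Tnni1, slow troponin I, spread widely within each genotype, with 0.835, 7.37, 9.44 and 3.28 CPM in WT, 0.521, 1.53 and 4.89 CPM in FUN025/+ and 1.31, 0.847, 4.50, 0.822 and 0.726 CPM in FUN025/FUN025. In each genotype 1 or 2 libraries stood well above the rest, and neither comparison passed (edgeR, adjusted p = 0.283 and 0.188). The slow regulatory light chain Myl2 did likewise, at 0.389, 6.35, 6.99 and 2.56 CPM in WT, 0.521, 0.807 and 2.54 in FUN025/+ and 0.854, 0.770, 2.41, 0.329 and 0.544 in FUN025/FUN025, with adjusted p = 0.0951 and 0.0769 by edgeR. Its log2 fold changes, −1.79 ± 0.67 and −2.04 ± 0.72, were the lowest of the 41 genes. Myl2 passed in both with the DESeq2 Wald test (0.038 and 0.0192) and without WT replicate 1 (edgeR, 0.0154 and 0.0128). In FUN025/FUN025 it passed without replicate 3 of that genotype too (edgeR, 0.0427). Slow myosin Myh7 was at 4.95, 18.7, 24.7 and 9.73 CPM in WT and averaged 7.52 ± 2.03 and 7.44 ± 2.18 CPM (SD) in the mutants, and 27.9% of its exon words are shared, mostly with Myh6. Myl3, the slow essential light chain, had at most 18 counts in any library and was not tested.

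Among the extraocular and developmental members, Myh13 was close to undetected. It had 18, 11 and 14 counts summed over the WT, FUN025/+ and FUN025/FUN025 libraries, with at most 8 in one library and more than 3 in only 5 of 15, so its level was at or near the floor and no difference was detectable at this depth. Myh8, the perinatal myosin, averaged 10.9 ± 3.69 CPM in WT, 7.02 ± 2.27 in FUN025/+ and 8.68 ± 2.13 in FUN025/FUN025 and passed in neither comparison (edgeR, adjusted p = 0.134 and 0.489). Actc1, the cardiac actin that skeletal muscle makes while developing, was at 36.8, 19.8, 30.9 and 62.1 CPM in WT, 7.64, 16.6 and 43.0 CPM as lowest, median and highest in FUN025/+, and 25.3, 42.8, 39.0, 34.9 and 44.1 CPM in FUN025/FUN025. All groups overlapped, and its FUN025/FUN025 mean was 99.5% of WT, next to 56.1% for Acta1. Its fold changes of −0.85 ± 0.43 and −0.01 ± 0.44 did not pass (edgeR, adjusted p = 0.214 and 0.992).

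More counts lay in 2 myosins outside the set. Myh3, the embryonic myosin, and Myh15, a slow myosin of extraocular muscle, came from the list of other muscle genes and were picked out after their values were seen. Myh3 was at 92.4, 103, 145 and 46.7 CPM in WT, 13.5, 32.5 and 75.4 CPM as lowest, median and highest in FUN025/+, and 13.5, 62.4, 31.6, 34.5 and 6.08 CPM in FUN025/FUN025, a 23.8-fold range from WT replicate 3 to FUN025/FUN025 replicate 5. Myh15 read 64.3, 88.3, 106 and 38.7 CPM in WT, 23.0, 39.4 and 77.6 CPM in FUN025/+ and 21.9, 46.4, 52.3, 43.1 and 12.4 CPM in FUN025/FUN025. Both were highest in WT replicate 3 and lowest in FUN025/FUN025 replicate 5, both overlapped between all genotypes, and none of their differences passed (edgeR, adjusted p = 0.156 and 0.075 for Myh3, 0.215 and 0.135 for Myh15). Myh3 in FUN025/FUN025 did pass with the DESeq2 Wald test (0.0357), with limma-voom (0.02) and without FUN025/FUN025 replicate 2 (0.0427).

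**Figure D4:**
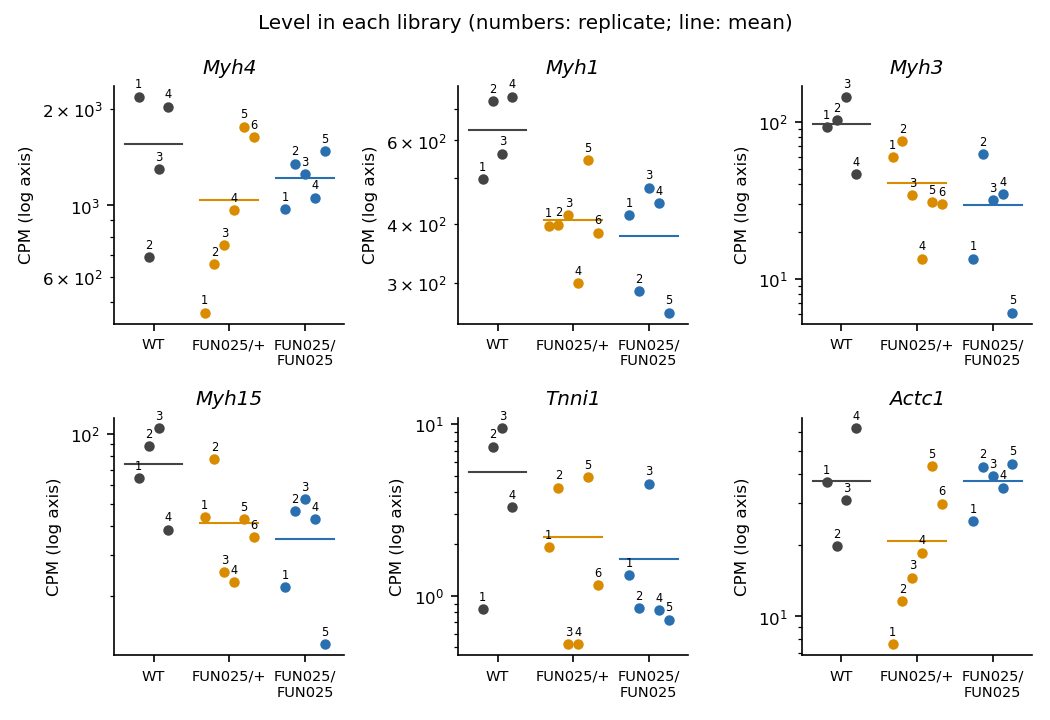
Level in CPM (log axis) of Myh4, Myh1, Myh3, Myh15, Tnni1 and Actc1 in each library, labelled by replicate, with a line at the group mean. Myh4 is lowest among WT in replicate 2 (689 CPM), whereas Myh3, Myh15 and Tnni1 are highest in WT replicate 3 (145, 106 and 9.44 CPM).

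Parts of the sarcomere common to fast and slow fibres gave 5 of the 10 calls in FUN025/+ and 4 of the 7 in FUN025/FUN025. Of 12, all were below 0 in FUN025/+ and 11 in FUN025/FUN025, with medians of −0.55 in each. The calls were 41.7% and 33.3% of the 12, beside 6.61% and 7.02% of all genes tested that passed as lower. Acta1, the skeletal actin of the thin filament whose promoter is printed above, was at 744, 547, 585 and 1030.0 CPM in WT, 283, 342 and 614 CPM as lowest, median and highest in FUN025/+, and 399, 359.6, 424, 445 and 409 CPM in FUN025/FUN025. The FUN025/FUN025 libraries were below every WT library, and FUN025/+ replicate 5 alone of its genotype reached into the WT range. Acta1 passed as lower in both, with log2 fold changes of −0.90 ± 0.23 (edgeR, adjusted p = 0.0203) and −0.83 ± 0.24 (adjusted p = 0.0346). The FUN025/FUN025 call was lost without any one of 7 of the 15 mice (adjusted p up to 0.127) and with no low-count filter (0.0628), and the FUN025/+ call without WT replicate 4 (0.0858) and with only the 2 genotypes fitted (0.0718).

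Actn2, the alpha-actinin that anchors thin filaments at the Z-disc, was at 73.5, 70.1, 76.2 and 90.6 CPM in WT, 39.1, 44.9 and 68.0 CPM in FUN025/+ and 43.2, 44.8, 63.2, 49.0 and 41.9 CPM in FUN025/FUN025. It was the one member whose mutant values were below all WT values in both genotypes, with fold changes of −0.69 ± 0.15 (edgeR, adjusted p = 0.00861) and −0.68 ± 0.16 (adjusted p = 0.0123). Desmin, Des, the intermediate filament that links Z-discs and that smooth muscle also makes, was at 207, 173, 182 and 257 CPM in WT, 108, 114 and 174 CPM in FUN025/+ and 124, 131, 149, 132 and 141 CPM in FUN025/FUN025. Its log2 fold changes were −0.68 ± 0.14 and −0.60 ± 0.15 (edgeR, adjusted p = 0.00789 and 0.0189). FUN025/+ replicate 5 overlapped WT in Des by a narrow margin. Ldb3, a Z-disc scaffold, read 94.6, 82.4, 86.9 and 118 CPM in WT, 45.3, 56.4 and 92.2 CPM in FUN025/+ and 57.3, 61.5, 72.9, 63.5 and 59.7 CPM in FUN025/FUN025, and passed in both genotypes at −0.60 ± 0.18 and −0.60 ± 0.18 (edgeR, adjusted p = 0.0388 and 0.0465). The Ldb3 calls were lost without any one of 10 of the 15 mice in FUN025/+ and 11 in FUN025/FUN025, each of the 4 WT mice among them (adjusted p up to 0.144 and 0.154), and with no low-count filter (0.0731 and 0.0902). The FUN025/+ call of Ldb3 was lost too with only the 2 genotypes fitted (0.105), and the FUN025/FUN025 call with upper-quartile scaling (0.0516). Those of Actn2 and Des in FUN025/+ held without each of the 15 mice and under the 11 other settings, leaving aside the muscle covariate given below, and those in FUN025/FUN025 were lost without WT replicate 4 alone (0.0508 and 0.0734).

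Myom1, which crosslinks thick filaments at the M-band, averaged 128 ± 18.5 CPM in WT, 90.4 ± 19.5 in FUN025/+ and 95.1 ± 6.33 in FUN025/FUN025. It passed in FUN025/+ at −0.51 ± 0.13 and missed in FUN025/FUN025 at −0.43 ± 0.14 (edgeR, adjusted p = 0.0241 and 0.0561). The Myom1 call was lost without WT replicate 1 or 4, with no low-count filter and with only the 2 genotypes fitted, at adjusted p up to 0.102. Titin, Ttn, the spring that spans from Z-disc to M-band, averaged 543 ± 95.1, 403 ± 128 and 437 ± 51.3 CPM in the same order of genotypes, and nebulin, Neb, which runs along the thin filament, 157 ± 28.1, 126 ± 51.5 and 133 ± 17.6 CPM. For neither did a difference from WT pass, with adjusted p from 0.176 to 0.595 by edgeR. Mybph, whose 31-base words are 46.3% shared with the overlapping gene Adora1, was near 0 in both, at −0.06 ± 0.13 and 0.03 ± 0.14.

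The energy supply of the fibres gave 1 called gene of 5 in each genotype (20.0%). Beside this, 6.61% and 7.02% of all genes tested passed as lower. Mb, myoglobin, the oxygen store of oxidative fibres, was at 206, 292, 246 and 294 CPM in WT, 132, 152 and 216 CPM as lowest, median and highest in FUN025/+, and 130.5, 138, 176, 144 and 104 CPM in FUN025/FUN025. Its FUN025/FUN025 values were all below WT and FUN025/+ replicate 5 overlapped, and the fold changes were −0.69 ± 0.17 (edgeR, adjusted p = 0.0149; lost without WT replicate 2 or 4 and with the replicate block, at 0.051 to 0.0611) and −0.90 ± 0.17 (adjusted p = 0.00414), the smallest p of the 41 genes in FUN025/FUN025. Reads of Mb can be hard to assign, since 27.7% of its 31-base exon words occur in another gene too, mostly Gm49540. WT replicate 2, low in Myh4 and Atp2a1, was 1 of the 2 highest libraries for Mb, Myh1 and Myh2. Muscle creatine kinase, Ckm, averaged 737 ± 228, 478 ± 212 and 516 ± 57.0 CPM, and it did not pass (edgeR, adjusted p = 0.19 and 0.309). The other 3 enzymes, Ckmt2, Eno3 and Pygm, had fold changes of −0.72 to −0.34, none past the threshold.

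Both calcium channels of the triad, where the surface signal is passed to the calcium store, were near the threshold. Ryr1, the release channel, was at 270.2, 151, 197 and 306 CPM in WT, 94.0, 117 and 204 CPM as lowest, median and highest in FUN025/+, and 125, 132, 121, 137 and 146 CPM in FUN025/FUN025. All FUN025/FUN025 libraries were below WT, and the fold changes of −0.77 ± 0.24 and −0.81 ± 0.25 missed narrowly (edgeR, adjusted p = 0.0549 and 0.0529). Ryr1 passed in both genotypes with the DESeq2 Wald test (0.0228 and 0.0203), limma-voom (0.0222 and 0.0308), the replicate block (0.0241 and 0.0333) and the photoreceptor covariate (0.00465 and 0.00432). The voltage sensor Cacna1s had fold changes of −0.84 ± 0.26 and −0.80 ± 0.27, and 18.1% of its exon words are shared, mostly with Gm37759.

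The share of each isoform within its family, on levels per kilobase of exon, gave the isoform make-up of each eyecup, and these shares were not tested. Among the 6 member myosin heavy chains, Myh4 took 76.6, 41.3, 62.9 and 67.3% in WT replicates 1 to 4, 47.5, 64.4 and 76.6% as lowest, median and highest in FUN025/+, and 64.8, 78.5, 66.5, 64.7 and 81.4% in FUN025/FUN025 replicates 1 to 5. WT replicate 2 was the lowest of all 15 and highest for Myh1 (41.2%) and Myh2 (16.4%). Myh7 took at most 0.835% and Myh13 at most 0.0294% in any library. With Myh3 and Myh15 added to make 8 chains, Myh3 took 0.329% to 6.23% and Myh15 0.643% to 5.42%, more than Myh7, Myh8 and Myh13.

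**Figure D5:**
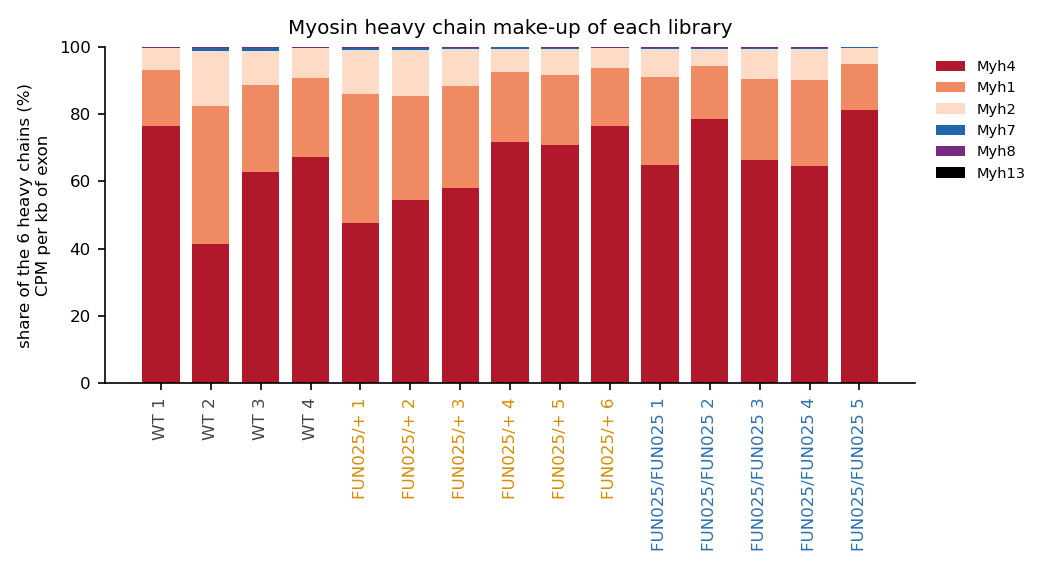
Share (%) of each of the 6 member myosin heavy chains in their summed level per kilobase of exon, one bar per library. Myh4 ranges from 41.3% in WT replicate 2 to 81.4% in FUN025/FUN025 replicate 5, and Myh7, Myh8 and Myh13 are thin slivers at the top.

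Slow members of the paired families were small everywhere. Tnnc1 was 0.328, 1.56, 1.56 and 0.519% of troponin C in WT, 0.307, 0.426 and 0.981% as lowest, median and highest in FUN025/+, and 0.362, 0.583, 0.989, 0.546 and 0.413% in FUN025/FUN025. Tnni1 was 0.104, 1.21, 1.51 and 0.318% of troponin I in WT, 0.146, 0.491 and 1.30% in FUN025/+ and 0.343, 0.209, 0.932, 0.178 and 0.162% in FUN025/FUN025. WT replicates 2 and 3, FUN025/+ replicate 2 and FUN025/FUN025 replicate 3 were high in both, and the ranges of the 3 genotypes overlapped. Myl2 was 0.0579% to 1.29% of the regulatory light chain and Myl3 0% to 0.380% of the essential light chain. Actc1 was 4.49, 3.32, 4.78 and 5.41% of sarcomeric actin in WT, 2.50, 4.50 and 6.24% in FUN025/+ and 5.68, 10.2, 8.03, 6.93 and 9.28% in FUN025/FUN025. All 5 FUN025/FUN025 shares of Actc1 were above all 4 WT shares, and those of FUN025/+ overlapped both.

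Between the mutant genotypes, none of the 41 genes passed (edgeR, adjusted p under 0.05), none had an unadjusted p under 0.05, and DESeq2 and limma-voom called 0 too, where 0.522% of all genes tested passed and 6.23% had an unadjusted p under 0.05. No member had values apart between the mutants, against 1.12% of all genes tested. The median log2 fold change of FUN025/FUN025 over FUN025/+ was 0.067, with 12 genes below 0 (51.8% of all genes tested were) and 29 above. The widest difference was that of Actc1, 0.84 with a 95% interval of −0.06 to 1.74 (edgeR, adjusted p = 0.862), against −0.40 to 0.53 for Acta1 and −0.57 to 1.04 for Myh4. Differences of this size were not resolved by these libraries.

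The calls were also read beside the level of other muscle genes in the same library. With the mean log2 CPM of the 66 other striated muscle genes as a covariate, no member passed as lower in either genotype, and the share of all genes tested that passed in either direction was 3.0% and 4.51%, against 13.7% and 14% without the covariate. Ttn and Tcap then passed as higher in FUN025/+, at 0.33 and 0.45 (edgeR, adjusted p = 0.0484 and 0.0263). In FUN025/FUN025, Actc1, Neb, Ttn and Myl1 passed as higher, at 1.54, 0.67, 0.45 and 0.43 (adjusted p = 0.0313, 0.0288, 0.0071 and 0.0366). The covariate is itself lower in the mutants, so part of any genotype difference in muscle genes is removed with it by construction. Myh1, Myh2, Mb, Acta1, Actn2, Des and the slow genes other than Mybpc1 were below 0 in this fit in both genotypes, without passing.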

How the data were processed

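Total RNA was extracted, mRNA was selected on Oligo(dT) beads and libraries were made with the NEBNext Ultra kit, per the study's methods. The deposited files held raw counts per Ensembl gene, one file per mouse, which the authors produced on GRCm38. The submitters' processing notes name FastQC 0.11.8, Trimmomatic 0.39, HISAT2 2.1.0, SAMtools and featureCounts 2.0.0. The strand setting, the treatment of multi-mapping reads and the annotation release are not given in the sources used here, so reads of overlapping and antisense genes cannot be told apart. Genotype and replicate number came from sample titles.

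Genes were joined to GENCODE M21 (55154 of 55421 matched). The 15% of genes of lowest variance were removed (47108 left), then low counts by filterByExpr, leaving 18979. All 15 libraries were fitted together with edgeR 4.0.16 (R 4.3.3; TMM factors 0.976 to 1.02; robust quasi-likelihood test), and p-values were adjusted by Benjamini-Hochberg over all genes tested. SE was taken from the fit. CPM used the TMM-scaled library size, and levels per length divide it by merged exon kilobases. Same-genotype libraries differed beyond sampling noise (chi-square per gene 3.23 to 18.9), so none was counted as a duplicate. The fit was tried on simulated data of 18979 genes, drawn independently of each other. There 200 genes were given a change of one fixed size, larger than the median change of the members. It recovered 79.0% of these in FUN025/FUN025 against WT, with 5.39% of calls false. Recovery of smaller changes, such as those of most members, was not simulated. Members, lists and tests were chosen with earlier results of these data known. Named with values were the myosins, troponins, light chains, Acta1, Actc1, Ttn, Neb, Des, Ckm, Mb, Atp2a1, Pvalb, Ryr1 and any other called member, to which Cacna1s, Mybpc1, Mybph and Tcap were added after their values were seen.

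Alternatives were DESeq2 1.42.0 (size factors and Wald test), upper-quartile scaling, TMM without muscle genes, limma-voom (limma 3.58.1), other filters, single pairs of genotypes, a replicate block, photoreceptor and muscle covariates, and each mouse left out. Replicate numbers did not pair the mice: they are different animals, and deviations of same-numbered libraries correlated at −0.38 to 0.13.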

Additional observations from a re-analysis of the deposited data

Results flagged for a closer look

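Over 138 groups of 4 to 6 libraries examined for one library far from the rest of its genotype, 5 values stood apart. That is fewer than chance alone gives, at about 1 in 20 groups. Of the 5 values, 4 concern 3 slow-fibre genes of FUN025/FUN025 replicate 3, with Tnni1 flagged both by level and by share. Its Myh7, slow myosin, was 11.2 CPM with the other 4 libraries at 5.99 to 7.15 CPM. Its Tnni1, slow troponin I, was 4.50 CPM with the others at 0.726 to 1.31 CPM. Its Myl2, the slow regulatory light chain, was 2.41 CPM with the others at 0.329 to 0.854 CPM. The share of Tnni1 in its troponin I was 0.933%, with the others at 0.162% to 0.343%. The same library had the highest sum of lens markers, 209.8 CPM, and its fast genes were not far from those of its genotype (5434.0 CPM summed, others 4406.9 to 5528.8 CPM). In FUN025/+ replicate 2, Tnnc1 was 0.981% of troponin C, with the other 5 libraries at 0.307% to 0.468%.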

How the results depend on the processing

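Over 58 fold changes against WT, of 27 members, Myh3 and Myh15, the direction below WT held under every scaling, test and filter tried except for Actc1 in FUN025/FUN025, which was at −0.01 and turned to 0.0058 with upper-quartile scaling, 0.075 with limma-voom, and 0.35, 0.12 and 0.019 without WT replicate 4, FUN025/FUN025 replicate 1 and FUN025/FUN025 replicate 4. Over all 15 mice left out in turn it ran from −0.21 to 0.35. The other 14 of 41 members tested were recomputed one by one only with the muscle covariate. Numbers of members called depended more on the setting, and except where the construction shows it the cause was not tested. In FUN025/+ (10 called, beside 13.7% of all genes tested) and FUN025/FUN025 (7 called, beside 14%), the counts were 17 and 17 with the DESeq2 Wald test (15.7% and 16.0% of all genes), 20 and 15 with limma-voom (15% and 15.1%), 5 and 4 with no low-count filter (6.41% and 6.5%), where more genes share the adjustment, 20 and 20 with the photoreceptor covariate (12.0% and 13.4%), which moved the medians to −0.88 and −0.79, and 2 and 4, all higher, with the muscle covariate (3.0% and 4.51%). Fitting only the 2 genotypes compared gave 7 and 19 (10.6% and 12.1%). Leaving out one mouse gave 3 to 23 in FUN025/+ and 1 to 15 in FUN025/FUN025, while 7.48% to 14.2% and 7.93% to 14.3% of all genes passed. In FUN025/+ these were 6 without WT replicate 3, 3 without WT replicate 4, 6 without FUN025/+ replicate 3 and 23 without FUN025/+ replicate 5. In FUN025/FUN025 they were 1 without WT replicate 4, 11 without FUN025/+ replicate 1, 15 without FUN025/+ replicate 5, 4 without FUN025/FUN025 replicate 2 and 4 without FUN025/FUN025 replicate 5. Between the mutants the count stayed at 0 in all of these.

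With the replicate number as a block, 18 and 12 members passed (10.6% and 11.3% of all genes), and of 58 named fold changes against WT 11 gained and 4 lost the threshold, none changing direction. The numbers do not pair the mice.

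For the other muscle genes, 20 and 22 called in FUN025/+ and FUN025/FUN025 became 31 with limma-voom, 12 with only the 2 genotypes, 32 with the replicate block, 44 with the photoreceptor covariate and 1 with the muscle covariate in FUN025/+, and 14 with no low-count filter, 38 with the photoreceptor covariate and 3 with the muscle covariate in FUN025/FUN025. Leaving out one mouse gave 8 to 38 and 11 to 23: the farthest were 8 and 11 without WT replicate 4, 14 in FUN025/FUN025 without its replicate 1, and 38 in FUN025/+ without its replicate 5. Between the mutants 0 became 1 with the DESeq2 Wald test, with no low-count filter and with the replicate block.

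With the muscle covariate the median of the members turned to 0.15 in FUN025/+ and 0.17 in FUN025/FUN025. The log2 fold changes of 27 of 41 members were above 0 in both genotypes, 13 of them among the 14 above. The other 14 were Myh4 (0.65 and 0.94), Tnnc2 (0.37 and 0.42), Tnnt3 (0.15 and 0.19), Mylpf (0.28 and 0.42), Myl1 (0.34 and 0.43), Actc1 (0.62 and 1.54), Ttn (0.33 and 0.45), Neb (0.58 and 0.67), Ckm (0.43 and 0.57), Atp2a1 (0.26 and 0.33), Pvalb (0.55 and 0.75), Ryr1 (0.091 and 0.060), Myom1 (0.035 and 0.094) and Ldb3 (0.096 and 0.090). In FUN025/FUN025 30 were above 0, among them Myh8 (0.15) and Tnni2 (0.091). The cause was not tested.

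Isoform shares computed without dividing by exon length moved by more than 1 SD for some forms. Means in WT, FUN025/+ and FUN025/FUN025 became 1.86%, 1.34% and 0.870% for Tnni1, and 0.443%, 0.461% and 0.500% for Myh8. In FUN025/+ and FUN025/FUN025 they became 1.97% and 1.88% for Tnnt1, 0.550% and 0.406% for Myl2, 0.496% and 0.420% for Myh7 among 6 chains, and 0.498% and 0.422% for Myh7 beside the fast chains. Depth limits Myh13 and Myl3, with more than 3 counts in 5 and 10 of 15 libraries. The slow genes Myl2 and Tnni1 also came near the floor in some libraries, so their fold changes rest on few counts. Myl2 was 0.329 CPM in FUN025/FUN025 replicate 4, where the floor was 0.247 CPM. Tnni1 was 0.521 CPM in FUN025/+ replicate 4, where the floor was 0.261 CPM.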

Other observations

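Of 10 myogenic factors 8 were tested, all 8 were below 0 in both genotypes, and 3 passed as lower in FUN025/+ and 2 in FUN025/FUN025 (edgeR, adjusted p under 0.05), where 6.61% and 7.02% of all genes tested did, with medians of −0.31 and −0.26. Of these, Myod1, which turns cells to the muscle fate, summed to 128 counts in 4 WT libraries, 50 in 6 FUN025/+ libraries and 85 in 5 FUN025/FUN025 libraries. Of the 7 neuromuscular junction genes tested, 6 were below 0 in FUN025/+ and 5 in FUN025/FUN025; none passed in any comparison, and none had an unadjusted p under 0.05. The fetal receptor subunit Chrng had 1 count over all 15 libraries.

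Smooth muscle is held by the choroid and its vessels. All 8 of its markers were below 0 in FUN025/+ and 2 of 8 in FUN025/FUN025, with medians of −0.32 and 0.16, and none passed in either (2 and 1 had an unadjusted p under 0.05).

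Gm13938, a transcript annotated antisense to Ttn and picked out after its values were seen, was higher in both mutant genotypes, while Ttn passed in neither. It was at 0.334, 0.269, 0.0999 and 0.167 CPM in WT replicates 1 to 4, 0.748, 1.28 and 2.56 CPM as lowest, median and highest in FUN025/+, and 1.18, 1.46, 3.13, 2.38 and 0.907 CPM in FUN025/FUN025. All 11 mutant libraries were above all 4 WT libraries, with log2 fold changes of 2.71 ± 0.47 and 3.02 ± 0.47 (SE; edgeR, adjusted p = 0.000921 and 0.000314). WT levels lie near the floor of 3 counts, and without a stated strand setting its reads and those of Ttn cannot be told apart.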
